A study of Mus musculus with 2 samples.

Results

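The genes described here encode the enzymes of the tricarboxylic acid (TCA) cycle and of mitochondrial fatty acid oxidation. They were chosen by name, 16 for the TCA cycle with pyruvate carboxylase and 18 for fatty acid oxidation, and all 34 had a probe among the 20618 genes that the array names. Their RNA was compared between SoNar-high and SoNar-low cells of a mouse B-ALL, a leukaemia of B-cell precursors, taken from marrow labelled as of 8 weeks of age. SoNar is a fluorescent sensor of the NADH/NAD+ balance, and its ratio of emission under violet over blue excitation was used to sort both populations. Each population gave total RNA for 1 Agilent array with a single dye, which makes 2 arrays. The sample titles name N-myc instead of SoNar, and the groups here follow the label of the cell population. How many mice gave cells, and which genetic lesion drove the leukaemia, is not given in the sources used here. With 1 array per population there is no replicate check, no test and no p-value, and precision is limited by the array number. In bulk RNA a smaller share of expressing cells and less RNA per cell cannot be told apart.

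The TCA cycle oxidises acetyl groups in the mitochondrial matrix and passes their electrons to NAD+ and, at succinate dehydrogenase, to a flavin. Fatty acid oxidation brings long-chain acyl groups into the matrix on carnitine and shortens them in repeated rounds of dehydrogenation, hydration, a further dehydrogenation and thiolysis. The first dehydrogenation of each round gives its electrons to a flavoprotein and the second gives them to NAD+, so both pathways are sources of mitochondrial NADH.

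All 34 genes were well above background on both arrays. Over all spots, 44.8% passed the scanner software's call of being well above background in SoNar-high cells, against 72.9% in SoNar-low cells. Signals below are the scanner's processed signal as a multiple of the same array's 75th percentile over all probes, which was 409 intensity units in SoNar-high and 470 in SoNar-low cells. A difference is the log2 signal of the SoNar-high array minus that of the SoNar-low array, averaged over the probes of a gene. Its error is the scanner software's own error of both signals combined, and lay between 0.12 and 0.27 for the 34 genes. That error covers the measurement of a spot and not animals, sorts or labelling. Different probes of a gene spread more widely, with a median SD of 0.32 over all genes with several probes, and 29 of the 34 genes rest on 1 measured probe. Over all 10521 genes measured on both arrays the median difference was 0.22, called the median gene below. Signals of different genes come from different probes and are not compared.

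Markers of B-cell precursors were measured on both arrays for 10 of 12 genes, among them Cd79a, Pax5 and Ebf1, while Igll1 and Rag1 stayed under the detection call on both. Sums of markers average all probes of a gene, those not above background included, and so can lie under the sum of the measured probes. The B-cell precursor markers summed to 154 in SoNar-high and 118 in SoNar-low cells. Some markers of each of the other marrow cell types were also measured on both arrays. The sums hold different genes and probes and are not compared between cell types. Neutrophil markers summed to 42.4 in SoNar-high and 50.05 in SoNar-low cells. Monocyte and macrophage markers summed to 0.686 in SoNar-high and 1.31 in SoNar-low cells, T and NK cell markers to 1.30 in SoNar-high and 2.91 in SoNar-low cells, and erythroid markers to 0.600 in SoNar-high and 1.76 in SoNar-low cells. All 8 neutrophil markers were measured, with a median difference of -0.53. Heart and skeletal muscle, fat and liver burn much fatty acid. Muscle markers summed to 0.222 in SoNar-high and 0.517 in SoNar-low cells, fat markers to 0.249 in SoNar-high and 0.386 in SoNar-low cells, and liver markers to 0.120 in SoNar-high and 0.159 in SoNar-low cells. None of these was well above background in SoNar-high cells, while 5 of 6 muscle, 2 of 5 fat and 1 of 4 liver markers were in SoNar-low cells. Of all 20618 genes, 26.4% were detected in SoNar-low cells alone. The detection floor was 17.7 units on the SoNar-low array and 40.8 units on the SoNar-high array. The part of other cells in the differences below was not tested.

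Most genes of both pathways were somewhat higher on the SoNar-high array, with 27 of the 34 (79.4%) above 0, against 66.9% of all measured genes. The place of 0 is set by the scaling. With scaling to the median probe each of the 34 lay above 0, the lowest being Hadha at 0.27, and the share of all measured genes was not counted. None of the 34 differed by 2-fold in either direction. Over all measured genes 2.4% reached 2-fold on the higher side and 4.39% on the lower side. The 16 TCA cycle genes had a median difference of 0.44 and ranged from -0.23 to 0.91. In the 18 fatty acid oxidation genes the median was 0.42, and they ranged from -0.30 to 0.91. At 1.5-fold, 11 of the 34 (32.4%) were higher, against 20.4% of all measured genes, and 0 were lower, against 10.2%. Of the 34, 24 lay above the median gene, where 50% of all genes lie by definition, with 12 of 16 in the TCA cycle and 12 of 18 in fatty acid oxidation.

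**Figure D1:**
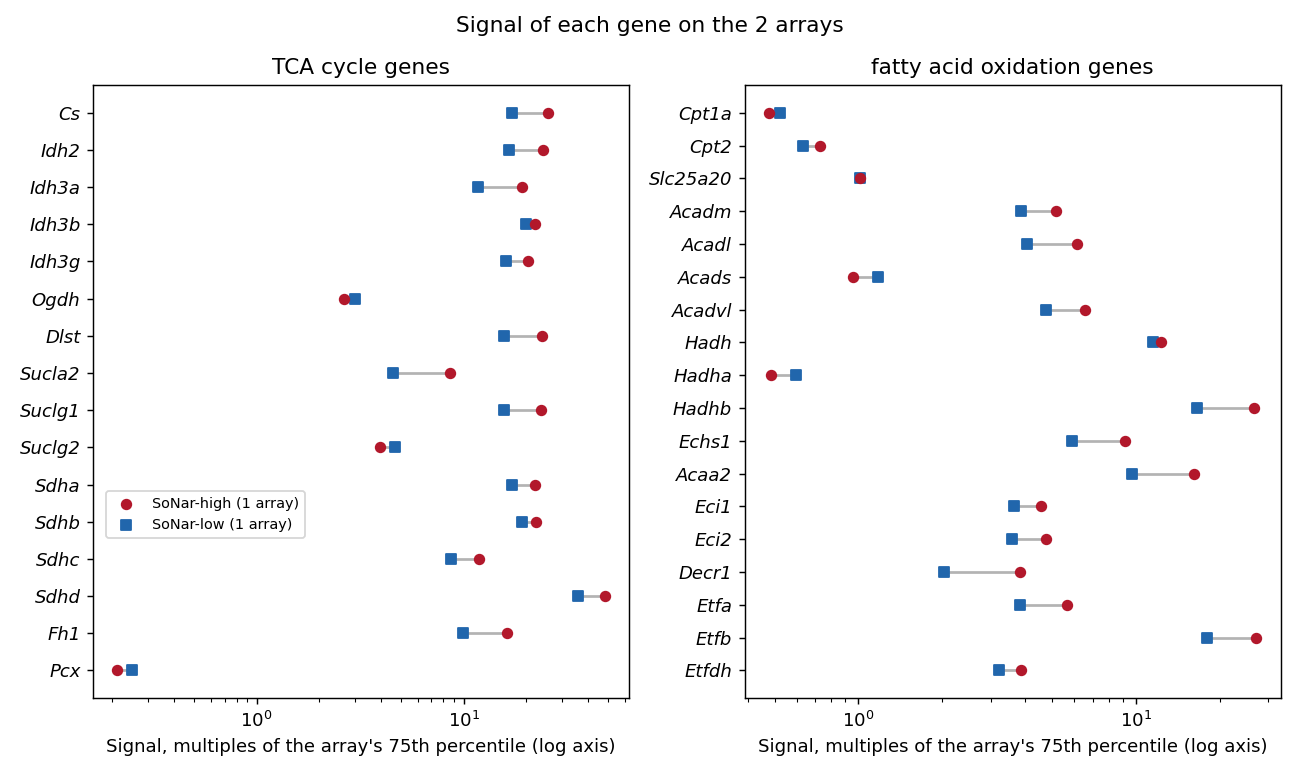
Signal of each gene on the SoNar-high array (red circles) and the SoNar-low array (blue squares), 1 array each, as a multiple of the array's 75th percentile on a log axis. Red lies right of blue for most genes, as for Sucla2 (8.58 in SoNar-high, 4.57 in SoNar-low cells), and left of it for genes such as Suclg2 (3.96 in SoNar-high, 4.64 in SoNar-low), Hadha (0.484 in SoNar-high, 0.595 in SoNar-low) and Acads (0.960 in SoNar-high, 1.17 in SoNar-low).

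The height of the signal went along with these differences. With all measured genes split into 10 equal bins by their mean level, the median difference was 0.00 in the dimmest bin, -0.13 in the next, and between 0.33 and 0.40 in the brightest 4 bins. Of the 34 genes, 28 lay in those brightest 4 bins, and 24 of the 28 were above the median gene, against 65.4% of all genes as bright. In the same bins 26 of the 28 (92.9%) lay above 0, against 81.8% of all genes there. At least 1.5-fold higher were 11 of the 28, against 28.8% of all genes in these bins. The 6 dimmer genes were Pcx, Cpt1a, Cpt2, Slc25a20, Acads and Hadha, and all 6 lay below the median gene, Cpt2 by only 0.03. Of all measured genes in the other 6 bins, 39.7% lay above the median gene. Measured from the median of their own bin, the medians of both lists were 0.05, and 20 of the 34 lay above it. Under quantile normalization, which also changes how the difference depends on level, the median of the fatty acid oxidation genes fell just below the median gene (-0.04).

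**Figure D2:**
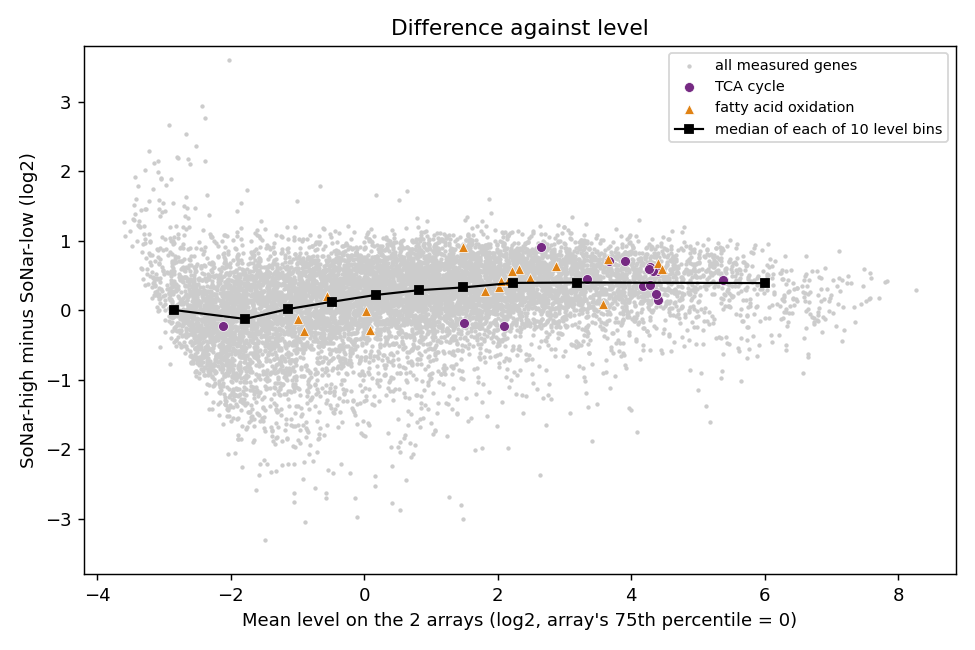
Difference between the arrays against mean level, both on the log2 scale, for all 10521 measured genes (grey), TCA cycle genes (purple circles) and fatty acid oxidation genes (orange triangles), with the median of each of 10 level bins as black squares placed at the middle of the bin's range. The squares lie between -0.13 and 0.40 and are higher at brighter levels, and most of the coloured points lie in the brighter bins, around the black line.

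The TCA cycle is described first, from citrate synthesis on. Cs encodes citrate synthase, which joins acetyl-CoA to oxaloacetate. Its signal was 25.5 in SoNar-high and 17.2 in SoNar-low cells, a difference of 0.57 ± 0.20 (scanner error). Idh2, the mitochondrial isocitrate dehydrogenase that reduces NADP+, had signals of 24.3 in SoNar-high and 16.5 in SoNar-low cells (0.56 ± 0.20). Both genes were thus higher on the SoNar-high array by about the same ratio.

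The NAD+-dependent isocitrate dehydrogenase is built of a catalytic subunit from Idh3a and of the subunits of Idh3b and Idh3g. Idh3a had a signal of 19.3 in SoNar-high and 11.8 in SoNar-low cells (0.71 ± 0.20). Idh3g was at 20.4 in SoNar-high and 16.1 in SoNar-low cells (0.34 ± 0.20), and Idh3b at 22.2 in SoNar-high and 20.1 in SoNar-low cells (0.14 ± 0.20). The catalytic subunit gene thus stood highest of the 3, and as reported Idh3b alone of them lay below the median gene. Under the 9 ways of processing described below for succinyl-CoA ligase, Idh3a lay above the median gene in 9, Idh3g in 4 and Idh3b in 1. The gap between Idh3a and Idh3b exceeds the scanner error of each, and each gene has 1 probe.

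Oxoglutarate dehydrogenase is the cycle's next source of NADH. Dlst, which encodes its succinyltransferase core, had signals of 24.0 in SoNar-high and 15.6 in SoNar-low cells (0.62 ± 0.20). Ogdh, which encodes the decarboxylating subunit, was measured by 3 probes that did not go one way. Their differences were -1.26, 0.14 and 0.58, each with a scanner error of 0.20 or 0.21. The lowest of them had 477 intensity units in SoNar-high and 1312 in SoNar-low cells, while the probe at 0.58 had 1409 units in SoNar-high and 1084 in SoNar-low cells. The mean over the probes was -0.18, and the brightest probe alone gave 0.14, so the sign of Ogdh turns with the choice of probe. The 3 probes carry the same transcript accession in the array design, and the parts of the transcript they match are not given in the sources used here.

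In the RefSeq promoter table (GRCm38.p6), Ogdh has several annotated starts. The stretch before the first of them on the plus strand, chr11:6291347-6291596, is shown because Ogdh alone, of the 30 members with a promoter in the table, holds the cAMP response element TGACGTCA, in capitals, and because its probes disagree.
Ogdh: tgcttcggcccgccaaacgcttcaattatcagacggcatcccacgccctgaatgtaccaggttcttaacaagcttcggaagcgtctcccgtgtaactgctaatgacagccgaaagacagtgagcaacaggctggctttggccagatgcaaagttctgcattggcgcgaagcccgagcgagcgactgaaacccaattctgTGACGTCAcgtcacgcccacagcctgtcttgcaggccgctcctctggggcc
The element begins at position -51, with -1 the base next to the start. TGACGTCA reads the same on both strands, and it was found in 1.79% of the 32851 promoter windows of the table, each with 250 bases before and 50 after a start. Counted by gene, 2.03% of the 27025 genes in the table hold it. The match is a description of the letters and says nothing of a factor bound there.

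Succinyl-CoA ligase, which makes a nucleoside triphosphate in the cycle, has a shared alpha subunit from Suclg1 and either of 2 beta subunits. That of Sucla2 gives the ADP-using enzyme and that of Suclg2 the GDP-using enzyme. Sucla2 had a signal of 8.58 in SoNar-high and 4.57 in SoNar-low cells, a difference of 0.91 ± 0.20 and the highest of the TCA cycle genes. Suclg1 was at 23.7 in SoNar-high and 15.7 in SoNar-low cells (0.59 ± 0.20). Suclg2 went the other way, with 3.96 in SoNar-high and 4.64 in SoNar-low cells (-0.23 ± 0.20), but was above 0 with scaling to the median probe (0.34). Relative to the median gene Sucla2 lay between 0.40 and 0.86 and Suclg2 between -0.69 and -0.28 under the 9 ways of processing, the reported one included, that can move a gene against the median gene (a shift of all genes alike cannot). The genes of the ADP-using and the GDP-using beta subunit stood on opposite sides of the median gene in each of the 9. Among these, only normexp, loess, quantile normalization and the series matrix changed the gap between both genes. The other alternatives left both differences as they were or moved both alike. Measured from genes of similar level, Sucla2 was at 0.51 and Suclg2 at -0.62. Each gene rests on 1 probe.

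The stretches of 250 bases before the starts of these 2 genes are given, since both share an alpha subunit and lay on opposite sides of the median gene. Sucla2 is read on the plus strand at chr14:73552536-73552785 and Suclg2 on the minus strand at chr6:95718847-95719096 (RefSeq, GRCm38.p6), all in lower case because no motif that was searched lies in them.
Sucla2: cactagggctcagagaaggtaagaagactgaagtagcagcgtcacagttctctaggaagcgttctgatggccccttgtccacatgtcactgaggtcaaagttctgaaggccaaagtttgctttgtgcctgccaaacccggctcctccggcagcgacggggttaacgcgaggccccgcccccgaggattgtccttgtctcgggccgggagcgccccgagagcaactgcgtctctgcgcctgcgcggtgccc
Suclg2: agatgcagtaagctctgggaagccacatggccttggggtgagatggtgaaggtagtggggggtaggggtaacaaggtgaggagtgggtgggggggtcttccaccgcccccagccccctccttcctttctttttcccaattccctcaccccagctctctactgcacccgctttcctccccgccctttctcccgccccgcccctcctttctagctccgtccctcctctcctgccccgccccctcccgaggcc
The Sucla2 stretch has 61.2% G and C with 18 CpG pairs, and the Suclg2 stretch 64.4% with 8 CpG pairs. Over all 32851 such stretches the medians were 52.4% and 6 CpG pairs.

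Succinate dehydrogenase links the cycle to the respiratory chain as its complex II. Sdha, the flavoprotein subunit gene, had signals of 22.04 in SoNar-high and 17.2 in SoNar-low cells (0.36 ± 0.20). Sdhb, the iron-sulfur subunit gene, was at 22.4 in SoNar-high and 19.2 in SoNar-low cells over 2 probes (0.23), which lay at 0.05 and 0.40. The membrane anchor genes were Sdhc, at 11.9 in SoNar-high and 8.66 in SoNar-low cells over 2 probes (0.45), and Sdhd, at 48.0 in SoNar-high and 35.7 in SoNar-low cells (0.43 ± 0.20). All 4 subunit genes were thus higher on the SoNar-high array, except that Sdhb was at -0.07 with loess and with the 75th percentile over detected probes, and they lay within 0.22 of each other on the log2 scale, close to the 0.40 and 0.39 at which the median gene of the brightest 2 bins stood. In the promoter window of Sdhd the letters TCAAGGTCA, a site known for oestrogen-related receptors, occur on the opposite strand from position 37, counted from the start as 1. They are in 0.423% of all windows, or 0.466% of all genes in the table, and in the window of no other member there.

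Fh1, which encodes fumarase, had a signal of 16.2 in SoNar-high and 9.97 in SoNar-low cells (0.70 ± 0.20). Pcx, which encodes pyruvate carboxylase and refills oxaloacetate, was at 0.213 in SoNar-high and 0.250 in SoNar-low cells (-0.23 ± 0.27). Its raw signals were 87.0 units in SoNar-high and 118 in SoNar-low cells, where the SoNar-high array's detection floor was 40.8 units, and its difference is smaller than its scanner error. The sign of Pcx turned to 0.13 with normexp, 0.15 with quantile normalization and 0.17 with the series matrix. It also turned with scaling to the median probe (0.33), which moved all genes up alike. Fh1 was the third highest of the TCA cycle genes as reported, while Pcx lay level with Suclg2 at the low end.

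**Figure D3:**
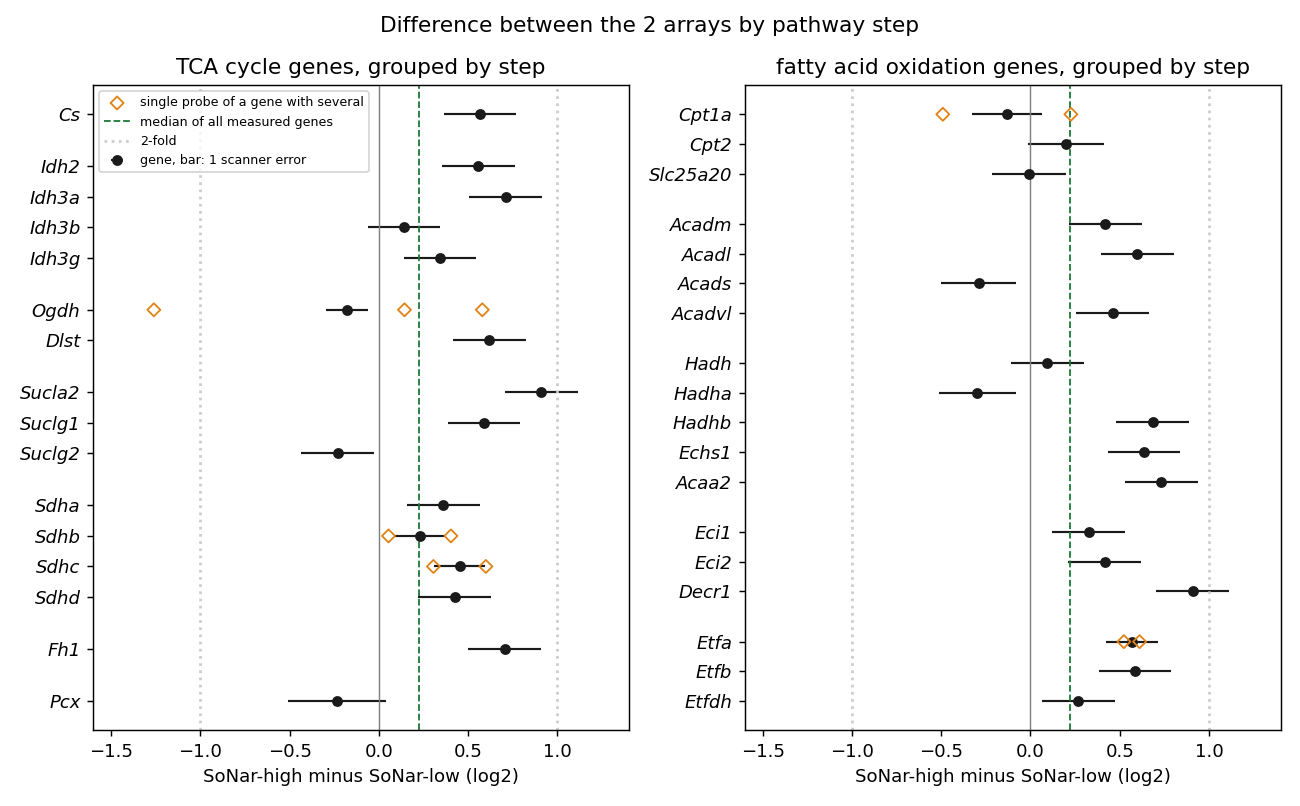
Difference (SoNar-high minus SoNar-low, log2) of each gene, grouped by pathway step, with 1 scanner error as the bar and single probes as open diamonds where a gene has several. The dashed green line is the median of all measured genes at 0.22 and the dotted lines mark 2-fold; no gene reaches them, while 1 of the 3 Ogdh probes lies at -1.26.

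Fatty acid oxidation starts with the carnitine shuttle, and its 3 genes lay below the median gene, Cpt2 only just. Cpt1a encodes the outer-membrane carnitine palmitoyltransferase that sets the pace of entry. It was measured by 2 probes, which lay at 0.23 ± 0.21 and -0.49 ± 0.33, and the mean was -0.13. That mean was above 0 with normexp (0.10), quantile normalization (0.06), the series matrix (0.07) and scaling to the median probe (0.43). Cpt1a was also above 0 with the brighter probe alone, which is all that the stricter filter on dim probes kept. The brighter probe was printed as 10 spots. On the SoNar-high array 9 usable spots ran from 1.63 through a median of 1.75 to 1.89, and on the SoNar-low array 10 spots ran from 1.41 through 1.46 to 1.65, with averages of 1.74 ± 0.07 in SoNar-high and 1.49 ± 0.08 in SoNar-low cells (SD between spots). The spots of this probe overlapped slightly between the arrays. The dimmer probe had 53.6 units in SoNar-high and 86.6 in SoNar-low cells.

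Cpt2, the inner-membrane transferase gene, had a signal of 0.726 in SoNar-high and 0.633 in SoNar-low cells (0.20 ± 0.21). A second Cpt2 probe was not well above background in SoNar-high cells, at 33.8 units against 43.6 units in SoNar-low cells, and gives no fold because its scaled SoNar-low signal of 0.0927 lies under the SoNar-high array's scaled detection floor of 0.0998. Slc25a20, the carnitine-acylcarnitine carrier gene and also a member of the SLC25 family, was at 1.01 in SoNar-high and 1.02 in SoNar-low cells (-0.01 ± 0.21). As reported, none of the 3 shuttle genes thus differed from 0 by more than its scanner error, Cpt1a only as the mean of probes that disagree.

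The acyl-CoA dehydrogenases carry out the first oxidation of each round and differ in the chain length they prefer. Acadvl, for very long chains, was at 6.55 in SoNar-high and 4.76 in SoNar-low cells (0.46 ± 0.20). Acadl, for long chains, was at 6.11 in SoNar-high and 4.04 in SoNar-low cells (0.60 ± 0.20), and Acadm, for medium chains, at 5.16 in SoNar-high and 3.86 in SoNar-low cells (0.42 ± 0.20). These 3 were higher on the SoNar-high array, beyond the scanner error. Acads, for short chains, was at 0.960 in SoNar-high and 1.17 in SoNar-low cells (-0.29 ± 0.21). As reported it so stood on the other side of 0 from the genes for longer chains, but scaling to the median probe put it above 0 (0.28). It lay 0.51 below genes of its own level, while the other 3 lay 0.07, 0.21 and 0.03 above genes of theirs, in the order given.

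The next steps are run by separate soluble enzymes and, for long chains, by the mitochondrial trifunctional protein. Echs1, the short-chain enoyl-CoA hydratase gene, had a signal of 9.14 in SoNar-high and 5.88 in SoNar-low cells (0.64 ± 0.20). Hadh, the soluble hydroxyacyl-CoA dehydrogenase gene, was at 12.3 in SoNar-high and 11.6 in SoNar-low cells (0.09 ± 0.20). Acaa2, the ketoacyl-CoA thiolase gene, was printed as 10 spots per array. Its spots ran from 14.2 through a median of 16.1 to 17.9 in SoNar-high and from 8.91 through 9.75 to 10.1 in SoNar-low cells. No spot of one array reached the other, and the averages were 16.2 ± 1.18 in SoNar-high and 9.71 ± 0.35 in SoNar-low cells (SD, 10 spots each), a difference of 0.73. This separation holds between spots of 2 slides and carries no information on the spread between sorts.

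**Figure D4:**
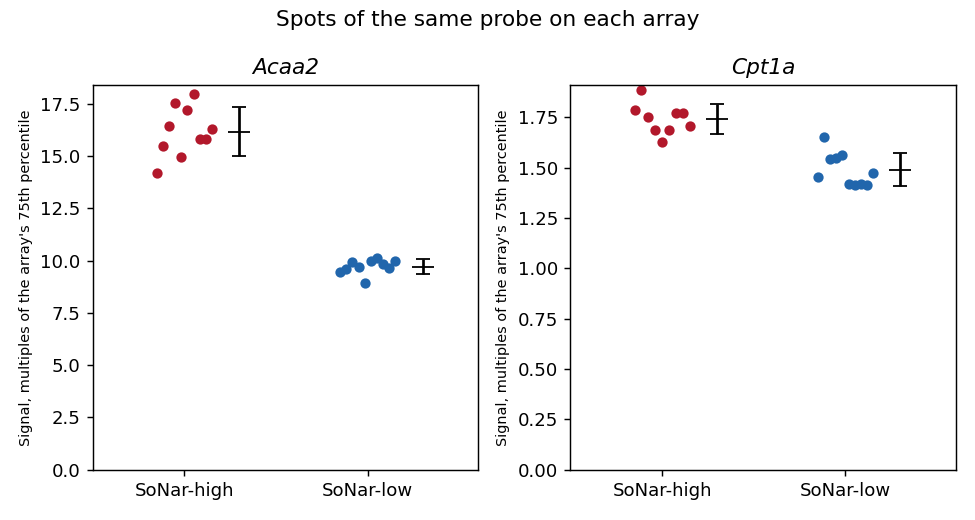
Signal of every usable spot of the Acaa2 probe (10 SoNar-high and 10 SoNar-low spots) and of the brighter Cpt1a probe (9 SoNar-high and 10 SoNar-low spots) on the SoNar-high and SoNar-low arrays, as multiples of the array's 75th percentile, with the mean and SD between spots as the bar. Acaa2 spots lie between 14.2 and 17.9 in SoNar-high and between 8.91 and 10.1 in SoNar-low cells, while those of Cpt1a overlap (1.63 to 1.89 in SoNar-high, 1.41 to 1.65 in SoNar-low cells).

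Hadha and Hadhb encode the alpha and beta subunits of the trifunctional protein, which works as a complex of both. Hadha had signals of 0.484 in SoNar-high and 0.595 in SoNar-low cells (-0.30 ± 0.22), and Hadhb 26.7 in SoNar-high and 16.6 in SoNar-low cells (0.68 ± 0.20). The partner genes thus lay on opposite sides of the median gene, and did so under each of the 8 ways of processing, among those 9, that measured both. Each was seen by 1 probe, and the Hadha probe was dim, with 198 units in SoNar-high and 280 in SoNar-low cells, so the stricter filter on dim probes dropped it. Among those ways of processing, only normexp, loess, quantile normalization and the series matrix changed the gap between Hadha and Hadhb. Measured from genes of similar level, Hadha was at -0.31 and Hadhb at 0.30.

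The annotated starts of this pair face away from each other, with 272 bases between them. That interval is shown because both genes start from it. It is read on the plus strand, the direction of Hadhb, at chr5:30154981-30155252 (RefSeq, GRCm38.p6), and is in lower case throughout.
Hadha-Hadhb: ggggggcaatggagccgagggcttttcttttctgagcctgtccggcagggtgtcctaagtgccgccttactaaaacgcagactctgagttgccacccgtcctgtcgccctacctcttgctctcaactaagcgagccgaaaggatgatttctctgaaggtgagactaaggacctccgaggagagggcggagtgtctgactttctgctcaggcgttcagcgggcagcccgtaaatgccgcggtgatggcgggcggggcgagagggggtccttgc
It has 60.3% G and C and 18 CpG pairs. None of the motifs TCAAGGTCA, TGACGTCA and the NRF1 site (GCGCA directly followed by its reverse complement), searched on both strands, is in the windows of either gene, which says only that these letters are not there.

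Unsaturated fatty acids need extra enzymes to move or reduce their double bonds. Decr1, the dienoyl-CoA reductase gene, had a signal of 3.82 in SoNar-high and 2.04 in SoNar-low cells (0.91 ± 0.20), the highest difference of the fatty acid oxidation genes. A second Decr1 probe was not well above background in SoNar-high cells (24.6 units, against 25.2 units in SoNar-low cells), and with it averaged in the gene stood at 0.54. The enoyl-CoA isomerase genes Eci1, at 4.56 in SoNar-high and 3.64 in SoNar-low cells (0.33 ± 0.20), and Eci2, at 4.76 in SoNar-high and 3.57 in SoNar-low cells (0.42 ± 0.20), were close to genes of their own level (-0.06 and 0.03 from these).

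Electrons from the acyl-CoA dehydrogenases pass to the electron transfer flavoprotein and from there to ubiquinone. Etfa, its alpha subunit gene, was at 5.66 in SoNar-high and 3.82 in SoNar-low cells, and its 2 probes lay close together at 0.52 and 0.61. Etfb, the beta subunit gene, was at 27.1 in SoNar-high and 18.1 in SoNar-low cells (0.59 ± 0.20). Etfdh, the gene of the oxidoreductase that hands the electrons on, was at 3.86 in SoNar-high and 3.20 in SoNar-low cells (0.27 ± 0.20). The subunits of the flavoprotein thus differed by about the same ratio, and Etfdh stood near the median gene.

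The Etfdh promoter is the only 1 of the 30 members with an entry in the table that holds the palindromic site of nuclear respiratory factor NRF1, GCGCA followed by its reverse complement. The table has no entry for Idh3a, Sdhc, Acaa2 and Decr1. The stretch is read on the minus strand at chr3:79628768-79629017 (RefSeq, GRCm38.p6), with the site in capitals, and is shown for that match.
Etfdh: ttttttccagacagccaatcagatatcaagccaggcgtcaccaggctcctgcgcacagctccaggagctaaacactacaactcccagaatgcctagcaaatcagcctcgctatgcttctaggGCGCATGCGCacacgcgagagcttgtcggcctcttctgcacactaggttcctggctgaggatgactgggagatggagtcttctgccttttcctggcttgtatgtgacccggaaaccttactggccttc
The site begins at position -128, and 0.971% of all windows, or 1.07% of all genes in the table, hold it.

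Grouped by the electron carrier that their reactions reduce, the genes of both pathways were set side by side. The 8 genes of NAD+-reducing enzymes (Idh3a, Idh3b, Idh3g, Ogdh, Dlst, Hadh, Hadha and Hadhb) had a median difference of 0.24, and 4 of 8 lay above the median gene. The 11 genes of flavin-reducing steps (the 4 of succinate dehydrogenase, the 4 acyl-CoA dehydrogenases and the 3 of electron transfer to ubiquinone) had a median of 0.43, and 10 of 11 lay above it. The NAD+ group thus spread more widely, from -0.30 to 0.71, against -0.29 to 0.60 in the flavin group. Of all measured genes 50% lay above the median gene, and 65.4% of those in the brightest 4 bins did. In the flavin group Sdhb and Etfdh were above it by only 0.006 and 0.05. Measured from genes of similar level the median was -0.15 in the NAD+ group, with 3 of 8 above 0. It was 0.04 in the flavin group, with 7 of 11 above 0. The difference between the groups was not tested. Genes of the cycle's other NAD+-reducing enzymes, Dld (0.66) and Mdh2 (0.51), lie outside both lists and were not counted. Dlst and Hadhb were counted with their enzyme complexes. The NAD+ median thus depends on which genes were listed.

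Set against the scanner error, 8 of the 34 genes (23.5%) lay more than 2 errors above the median gene, where 18.3% of all measured genes did. They were Idh3a, Sucla2, Fh1, Hadhb, Echs1, Acaa2, Decr1 and Etfa. Another 4 (11.8%) lay more than 2 errors below it, against 22.1% of all genes: Ogdh, Suclg2, Acads and Hadha. Ogdh is among them only as the mean of probes that disagree. Under those 9 ways of processing, 16 genes were above the median gene each time, namely Acaa2, Acadl, Cs, Decr1, Dlst, Echs1, Etfa, Etfb, Fh1, Hadhb, Idh2, Idh3a, Sdhc, Sdhd, Sucla2 and Suclg1. Acads, Cpt1a, Hadha, Ogdh, Pcx, Slc25a20 and Suclg2 were below it in each that measured them, and the remaining 11 changed sides. The share of all measured genes that keep their side in this way was not counted, so these counts have no background. Scaling to the median probe moved every gene up by 0.57 and put 16 of the 34 past 2-fold higher, along with 32.1% of all measured genes.

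**Figure D5:**
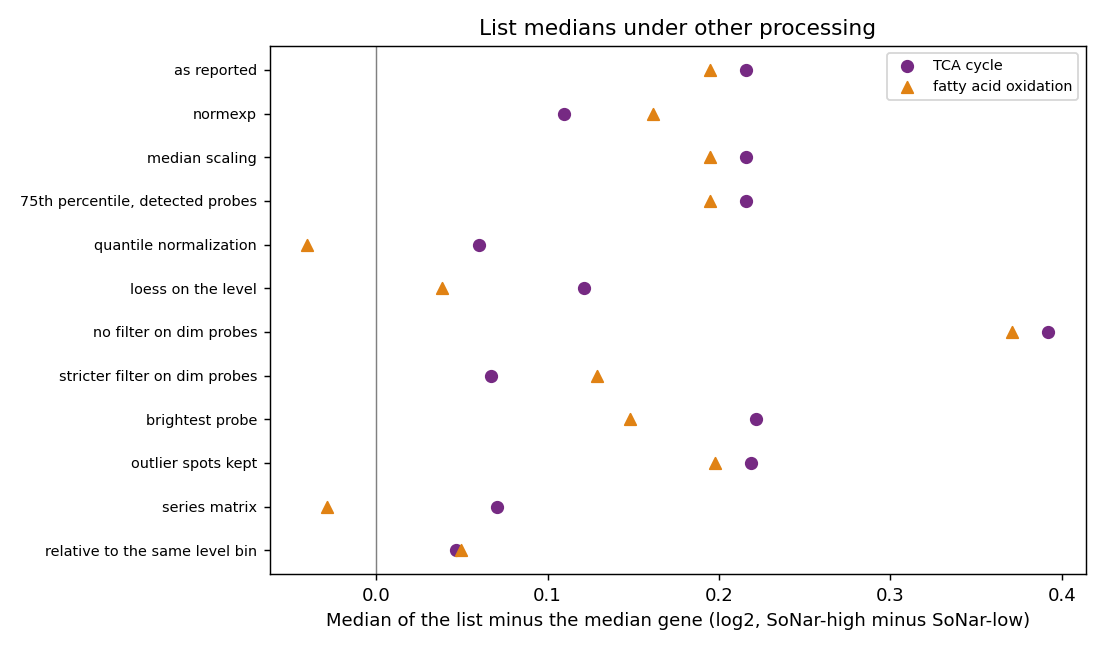
Median difference of the TCA cycle genes (purple circles) and of the fatty acid oxidation genes (orange triangles) minus the median of all measured genes, on the log2 scale (SoNar-high minus SoNar-low), under each way of processing. The TCA cycle median stays between 0.05 and 0.39, while the fatty acid oxidation median reaches -0.04 under quantile normalization and -0.03 with the series matrix.

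Beyond these 34, a wider list of 52 genes of the same pathways held transporters, acyl-CoA ligases, peroxisomal enzymes and regulators. Of these, 39 were measured on both arrays, 11 were detected in SoNar-low cells alone and 2 in neither. Detection in SoNar-low cells alone thus applied to 21.2% of the wider list, against 26.4% of all 20618 genes. Among the 39, 0 were 2-fold higher or more, against 2.4% of all measured genes, and 2 (5.13%) were 2-fold lower or more, against 4.39%. At 1.5-fold 13 (33.3%) were higher, against 20.4%, and 3 (7.69%) were lower, against 10.2%. Their median was 0.40, and 24 lay above the median gene (61.5%, against 50%). Among the highest were Acad11, an acyl-CoA dehydrogenase gene, at 3.63 in SoNar-high and 1.90 in SoNar-low cells (0.94), and the peroxisomal thiolase gene Acaa1a at 7.71 in SoNar-high and 4.28 in SoNar-low cells (0.85). Lowest were Acad10 at 1.00 in SoNar-high and 3.20 in SoNar-low cells (-1.68), Ppara, the nuclear receptor gene that drives fatty acid oxidation in liver, at 0.434 in SoNar-high and 1.07 in SoNar-low cells (-1.30), and the fatty acid transport gene Slc27a1 at 0.639 in SoNar-high and 1.09 in SoNar-low cells (-0.76). Each of these genes rests on 1 probe.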

How the data were processed

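Total RNA of each sorted population (1.0 µg, per the labels) was labelled with Cy3 and hybridised to 1 array. The deposited scanner files hold 1-colour intensity values, background-subtracted and not scaled between arrays, from Agilent Feature Extraction 11.0.1.1 per the file headers (the submitters' processing notes name 9.1). The authors' deposited series matrix gives log2 values with a median of 5.90 on both arrays and the scanner signals' direction (Spearman's rho across probes 1.000 and 0.9998); its centring is unknown, and it served as an alternative. Flags for background and outliers are those of the deposited files.

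Control spots and outlier spots were left out and replicate spots averaged on the log2 scale, giving 39085 probes, scaled to each array's 75th percentile. RefSeq accessions were matched to symbols through a GRCm38 gene table, used for names only; 27115 probes matched 20618 genes. A gene's difference averages those of its probes that passed the background flag on both arrays, and 2-fold was the call.

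Members and lists were chosen with earlier results of these data known. Named genes are all members and the 3 highest and 3 lowest of the wider list, of which 1 is not reported here; other genes of that list in the closing section were picked after their values were seen. Alternatives are listed in the closing section; normexp (offset 50) ran on median rather than, as planned, mean spot signals. The reference to genes in the same of 10 level bins and the comparison with the scanner error were chosen after seeing the data. The gene calls were tested on simulated data with planted 3-fold differences and noise under the spread between probes. That test says nothing of smaller differences or of the spread between samples. Python 3.11.15, numpy 2.4.6, pandas 2.3.3, statsmodels 0.14.6, matplotlib 3.10.9, R 4.3.3 and limma 3.58.1 were used.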

Additional observations from a re-analysis of the deposited data

How the results depend on the processing

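With 1 array per population no array could be left out and no difference has an error between samples; dim probes (Pcx, Hadha and a second probe each of Cpt1a, Cpt2 and Decr1) are limited by signal over background. No paired analysis was possible because each population has 1 array. At 2-fold, 253 measured genes were higher and 462 lower (35.4% of these higher). These became 72 and 241 with normexp (23.0%), 3380 and 140 with median scaling (96.0%), 61 and 853 with the 75th percentile taken over detected probes (6.67%), 118 and 531 with loess (18.2%), 348 and 392 with quantile normalization (47.0%), 430 and 359 with the series matrix (54.5%), 1885 and 2542 with no filter on dim probes and 141 and 111 with the stricter one, 2145 and 1070 at 1.5-fold, and 31 and 133 at 3-fold. Those scalings moved the median gene by 0.57 (median) and -0.30 (75th percentile over detected probes), loess by -0.17, and the filters by -0.18 (none) and 0.16 (stricter).

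The TCA cycle median relative to the median gene, 0.22 as reported, was 0.0598 with quantile normalization, 0.0671 with the stricter filter, 0.0703 with the series matrix, 0.11 with normexp, 0.12 with loess, 0.39 with no filter and 0.0467 relative to genes in the same level bin. That of fatty acid oxidation, 0.19 as reported, was 0.0386 with loess, 0.0492 relative to the same level bin, 0.129 with the stricter filter and 0.37 with no filter, and turned to -0.0404 with quantile normalization and -0.0289 with the series matrix; the cause was not tested. The count of genes above the median gene ran from 17 (quantile normalization and the series matrix) to 26 (no filter), against 24 as reported. Keeping outlier spots, taking the brightest probe or leaving out Pcx or Hadha, the genes furthest from their list's median, moved neither median by more than the spread between spots (0.15).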

Other observations

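Some genes of the wider list, picked out after their values were seen, are given here. Of enzymes outside the 16, Mdh2, the mitochondrial malate dehydrogenase gene, was at 118 in SoNar-high and 82.4 in SoNar-low cells (0.51), its cytosolic counterpart Mdh1 at 31.6 in SoNar-high and 19.9 in SoNar-low cells (0.67), and Dld, the shared dihydrolipoamide dehydrogenase gene, at 13.5 in SoNar-high and 8.56 in SoNar-low cells (0.66). Idh1, the cytosolic isocitrate dehydrogenase gene, was detected in SoNar-low cells alone.

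The assembly factor genes of succinate dehydrogenase were all higher on the SoNar-high array and, as reported, stood above the subunit genes (with the brightest probe Sdhc, at 0.60, passed Sdhaf3). Sdhaf4 was at 4.53 in SoNar-high and 2.83 in SoNar-low cells (0.68), Sdhaf2 at 0.630 in SoNar-high and 0.395 in SoNar-low cells (0.67), Sdhaf1 at 6.30 in SoNar-high and 4.04 in SoNar-low cells (0.64) and Sdhaf3 at 1.89 in SoNar-high and 1.29 in SoNar-low cells (0.54), while the 4 subunit genes lay between 0.23 and 0.45. Measured from genes of similar level these factors were at 0.29, 0.66, 0.25 and 0.26 in that order. Esrra, the gene of a nuclear receptor of mitochondrial genes, was at 1.89 in SoNar-high and 1.16 in SoNar-low cells (0.71). Each of the assembly factors and Esrra has 1 probe, and none of these differences was tested.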
